A study of Drosophila melanogaster with 9 samples.

Results

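The genes described here are 51 Drosophila genes, known in the deposited file only by a CG or CR number, whose RNA was lower when CtBP RNAi was added to ph+E(z) RNAi. They were chosen by their values in an RNA sequencing experiment on Kc167, a cell line of embryonic origin with hemocyte-like (blood cell) character. The unit is FPKM, a fragment count divided by transcript length and by library size, so that levels of different genes can be compared per length. A member had at least 1 FPKM in each ph+E(z) library, and its lowest ph+E(z) library lay at least 1.5 times above its highest ph+E(z)+CtBP library. Of 14797 genes in the file, 8216 carry a CG or CR number without CG14225, which the rule leaves out, and 3988 of these reached 1 FPKM. The fold was met by 72, and 21 of them were left out because ph+E(z) RNAi alone had raised them at least 1.5 times in the same way. The remaining 51 are 1.28% of the 3988. Among 3664 genes with other names that reached 1 FPKM, 41 met the whole rule, which is 1.12%. All 51 were found in the dm6 annotation, 50 as protein-coding genes and 1, CR33294, as a pseudogene. In that annotation 13 of them now have a name, given in brackets below.

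The 9 libraries form 3 groups of 3, all from Kc167 cells collected on day 7 after 15 µg of dsRNA. The groups are Control RNAi, ph+E(z) RNAi against both Polycomb genes, and ph+E(z)+CtBP RNAi against all 3 targets. The sources used here do not give the target of the control dsRNA, and no group had CtBP RNAi alone, so each value of CtBP RNAi is that of its addition to ph+E(z) RNAi. Whether the replicates came from separate cultures is not stated in the labels. Any p-value therefore rests on the spread among the 9 libraries alone. FPKM carry no read counts, so the depth is unknown.

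CtBP is a corepressor that binds DNA-bound transcription factors through short peptide motifs and brings histone-modifying enzymes to their target genes. It also has the fold of a dehydrogenase and binds NAD(H). Polyhomeotic, encoded by ph-p and ph-d, belongs to the first Polycomb repressive complex, and E(z) is the enzyme of the second repressive complex that methylates histone H3. A CG number is the computed-gene identifier that a fly gene keeps until it is named after a phenotype, a product or a related gene. The members were grouped by their values and not by a pathway, and those without a name are described by their values, structure and position.

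FPKM summed to between 725406 and 908290 per library. CtBP lay at 205, 221 and 220 FPKM in the ph+E(z) libraries and at 49.0, 41.8 and 65.8 with all 3 targets. E(z) lay at 31.2 to 43.4 FPKM in control libraries and at 8.29 to 12.1 in the other 6. The library labelled control replicate 1 stood apart. Its summed FPKM were 40.4% from ribosomal protein genes, a share of 26.8% to 31.3% elsewhere. Its ph-p level of 4.64 FPKM, below the 7.15 to 10.3 of the 6 libraries treated against ph, taken alone goes against its label. Its ph-d level was also low, at 1.26 FPKM against 3.73 to 4.99 in those 6 libraries. Why both genes were low in this library was not tested. Its E(z) level of 43.4 FPKM, the highest of the 9 libraries, goes with its label. By limma neither ph gene was called lower with ph+E(z) RNAi: ph-p differed by -0.62 ± 0.46 on the log2 scale (adjusted p = 0.486), and ph-d, at 4.21 to 4.91 FPKM against 1.26, 5.72 and 4.87 in control, by 0.38 ± 0.43 (adjusted p = 0.629). The ph-p controls 2 and 3, at 18.9 and 18.1 FPKM, lay above all 6 treated libraries. Of 11 hemocyte markers found, 9 reached 1 FPKM in each of the 9 libraries and 0 were at 0 throughout. All 4 fat body markers and the 3 gut markers found lay under 0.5 FPKM in each library. Of the other markers, 3 of neurons, 2 of muscle, 4 of germline and 3 of crystal cells and lamellocytes could be tested. Limma called 0 of them in the comparison that chose the members. Against control it called 2 crystal cell and lamellocyte markers higher with ph+E(z) RNAi. With all 3 targets it called 2 of these and 1 muscle marker higher, and 0 were called lower in either comparison. The summed level of hemocyte markers moved in the same direction as the members. It was 752 to 996 FPKM in control, 1330 to 1540 with ph+E(z) and 669 to 703 with all 3 targets. The highest single levels were those of He and Hml, at up to 673 and 312 FPKM. Limma called 6 of 11 lower and 0 higher when CtBP RNAi was added, and 2 higher and 1 lower with ph+E(z) RNAi against control. The part of these markers in the members' values was not tested.

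**Figure D1:**
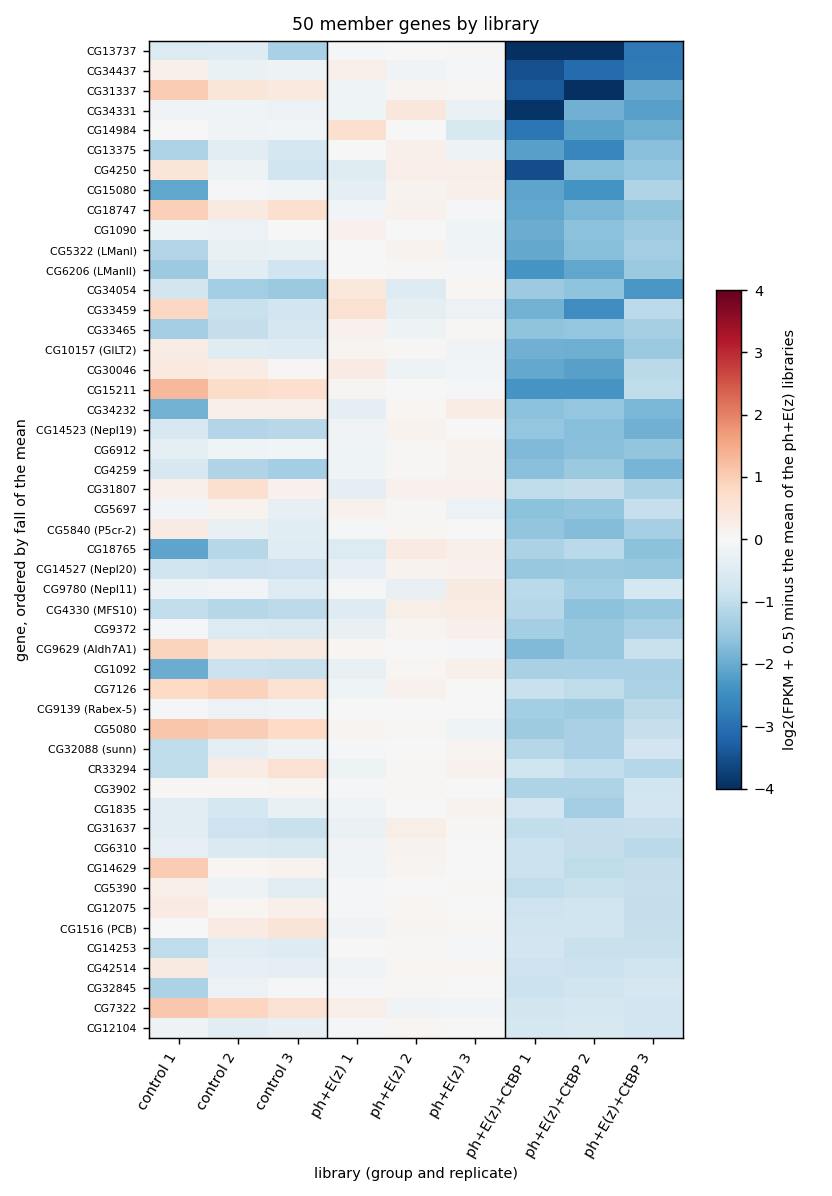
Each row is 1 of 50 of the 51 genes, ordered from the largest to the smallest fall of the mean, and each column is 1 library. Colour gives log2(FPKM + 0.5) minus the mean of the 3 ph+E(z) libraries of that gene. The ph+E(z)+CtBP columns are blue throughout because the rule chose the genes so, from 15.9-fold at the top (CG13737) to 1.63-fold at the bottom (CG12104), while the control columns range from red to blue.

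The members covered a wide range of levels. Mean FPKM with ph+E(z) RNAi ran from 1.87 to 504 with a median of 21.6, and 17 members lay under 10 FPKM, 26 between 10 and 100, and 8 at 100 or more. With all 3 targets the median was 6.27 FPKM. The median fold between the means was 3.0. It was at least 4-fold in 12 members, 2-fold to 4-fold in 29 and under 2-fold in 10. These falls chose the members and are a description. In the fit across all genes, limma with Benjamini-Hochberg adjustment called 40 of the 51 lower, where 1.77% of 8853 tested genes were called lower. The groups did not overlap in all 51, as the rule demands, where 16.0% of tested genes had all 3 libraries with CtBP RNAi below all 3 without it. Leaving out ph+E(z) replicate 2 or 3 gave 18 calls, and leaving out the first or the second library with CtBP RNAi gave 21. Of the 51, 40 had in the authors' deposited table a q-value under 0.05 for this comparison, where 3.34% of the 8108 genes they tested did so in the lower direction. Just inside the threshold lay CG9780 (Nepl11) and CG7322, whose lowest ph+E(z) library was 1.5 times the highest with all 3 targets. Just outside lay CG17119 at 1.49 and CG4653 at 1.47 times.

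The largest fall was in CG13737, FBgn0036382 on chromosome 3L at 13878994 to 13883056 (dm6, as for each position given here). Its control libraries lay at 20, 20.2 and 11.6 FPKM, those with ph+E(z) at 28.2, 29.3 and 30.7, and those with all 3 targets at 0.751, 1.2 and 3.6. The last group was far below both others, and the library nearest to them was replicate 3. The gene shares its deposited locus with another gene, and its q-value in the authors' deposited table was 0.32. CG34437, FBgn0085466 on 3R at 28283719 to 28284725, measured 58.6, 42.2 and 44.4 FPKM in control, 59.3, 45.6 and 48.1 with ph+E(z), and 3.97, 5.62 and 6.65 with all 3 targets. Its control and ph+E(z) ranges overlapped, and the mean was 9.43-fold lower with CtBP RNAi. CG31337, FBgn0051337 on 3R at 13543966 to 13545400, already lay lower with ph+E(z) RNAi. It went from 36.5, 25 and 23.0 FPKM in control through 15.7, 19.0 and 18.3 to 1.3, 0.568 and 3.96.

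The next 5 genes had folds of 5.14 to 8.19 between the means. Limma did not call CG4250 (adjusted p = 0.0654) or CG15080 (adjusted p = 0.119) lower when CtBP RNAi was added, and called the others. CG34331, FBgn0085360 at 20122453 to 20125271 of chromosome X, had 6.25, 6.16 and 5.95 FPKM in control and 6.18, 9.76 and 5.7 with ph+E(z). With all 3 targets it was listed at 0 in replicate 1 and lay at 1.47 and 1.17 FPKM in the others. CG14984, FBgn0035480 on 3L at 3951193 to 3952550, varied among its ph+E(z) libraries at 46.2, 29.3 and 18.4 FPKM, and with all 3 targets it lay at 3.53, 6.24 and 7.15. Its control libraries lay within the ph+E(z) range, at 29.4, 26.7 and 27.0 FPKM. CG13375, FBgn0040370 on X at 283186 to 294962 and within the gene CG3777, stood at 4.11, 7.38 and 6.12 FPKM in control and 10.4, 12 and 8.92 with ph+E(z). It lay at 1.89, 1.28 and 2.91 FPKM with all 3 targets, below both other groups. CG4250 on 2R measured 5.95, 10.2 and 9.94 FPKM with ph+E(z) and 0.267, 2.27 and 2.54 with all 3 targets. CG15080 on 2R measured 3.12, 4.66 and 4.83 FPKM with ph+E(z) and 0.583, 0.375 and 1.5 with all 3 targets. The library labelled control replicate 1 lay at 0.600 FPKM for CG15080, against 3.88 and 3.8 in the other control libraries, and so fell in the range of the CtBP RNAi libraries.

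The most abundant member was CG6912, FBgn0038290 on 3R at 15135138 to 15137004. It measured 388, 444 and 466 FPKM in control, 447, 516 and 549 with ph+E(z), and 147, 158 and 169 with all 3 targets. Its control and ph+E(z) libraries overlapped, and all 3 libraries with CtBP RNAi lay far below them. CG6310 on 3L stood at 235, 288 and 261 FPKM with ph+E(z) and at 143, 135 and 123 with all 3 targets, with the controls between them at 208, 174 and 170. CG12104 on 3L, the member with the smallest fold, showed the same order at 161, 174 and 163 FPKM, then 101, 107 and 98.1, with controls at 143, 125 and 132. In both genes the 3 groups did not overlap. CG14629 on X differed in that its controls, at 258, 136 and 143 FPKM, reached above the ph+E(z) libraries, at 118, 138 and 131. Its libraries with all 3 targets lay at 70.8, 63.1 and 65.6 FPKM. CG15211 on X lay at 112, 102 and 98.0 FPKM with ph+E(z) and at 19.9, 20 and 51.5 with all 3 targets. There replicate 3 was again the highest, and the controls, at 258, 172 and 167 FPKM, lay above all other libraries.

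Among the 13 members with a name in the dm6 annotation, 3 belong to families of lysosomal enzymes. CG5322 (LManI) and CG6206 (LManII) encode lysosomal alpha-mannosidases, which remove mannose from glycoproteins during their breakdown. LManII measured 7.51, 15.9 and 12.3 FPKM in control, 21.8, 22.1 and 20.7 with ph+E(z), and 3.78, 4.68 and 7.34 with all 3 targets. LManI lay lower at 1.82, 3.77 and 3.85 FPKM, then 4.72, 5.17 and 4.23, and then 0.756, 1.11 and 1.46. For both genes the ph+E(z) libraries were the highest and the libraries with CtBP RNAi the lowest, with no overlap between the 3 groups. The other 4 genes of this family, LManIII to LManVI, did not exceed 0.0388 FPKM in any library. CG10157 (GILT2) encodes a thiol reductase of the family that opens disulfide bonds of proteins in lysosomes. It measured 67.3, 39.0 and 37.8 FPKM in control, 58.7, 56.3 and 49.5 with ph+E(z), and 14.2, 13.8 and 19.4 with all 3 targets. Its neighbour GILT3 lay at 125, 69.9 and 74.0 FPKM with ph+E(z) and at 23.8, 29.5 and 62.4 with all 3 targets, without a call by limma (adjusted p = 0.135), and GILT1 differed by 0.55 ± 0.24 on the log2 scale in the other direction (limma adjusted p = 0.345).

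Another 3 members are neprilysin-like genes, which encode relatives of the membrane metallopeptidase neprilysin, an enzyme that cleaves small peptides outside the cell. CG14527 (Nepl20) measured 113, 109 and 111 FPKM in control, 159, 219 and 225 with ph+E(z), and 69.6, 70.3 and 68.8 with all 3 targets. CG14523 (Nepl19) measured 44.4, 30.4 and 32.0 FPKM, then 62.0, 76.2 and 69.9, and then 23.5, 21.1 and 17.8. Both were highest with ph+E(z) and lowest with all 3 targets, and no library of one group entered the range of another. Both share their deposited locus with other genes. In the authors' deposited table the q-value for the addition of CtBP RNAi was 0.0705 for Nepl19 and 0.00102 for Nepl20. CG9780 (Nepl11) was scarce, at 1.71, 1.43 and 2.54 FPKM with ph+E(z) and 0.620, 0.418 and 0.953 with all 3 targets, without a call by limma (adjusted p = 0.0681). Of 19 Nepl genes in the file, 13 could be tested, and 2 of the 10 tested genes that are not members were called lower when CtBP RNAi was added. Those were Nepl21 and Nepl9, named after their values were seen. Nepl9 lay at 0.880, 2.21 and 3.74 FPKM with ph+E(z) and at 0.0580, 0.369 and 0.0613 with all 3 targets (limma adjusted p = 0.0487), and 11 of 17 alternatives lost that call, with adjusted p of 0.0178 to 0.182. By limma 0 Nepl genes were called higher.

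Metabolic enzymes are encoded by another 3 of the named members. CG5840 (P5cr-2), a pyrroline-5-carboxylate reductase that makes proline, measured 26.8, 29.7 and 27.4 FPKM with ph+E(z) and 9.0, 7.96 and 10.9 with all 3 targets. Its control libraries, at 20.2 to 35.3 FPKM, overlapped those with ph+E(z). CG9629 (Aldh7A1), an aldehyde dehydrogenase whose mammalian counterpart acts in lysine breakdown, measured 56.3, 39.9 and 38.9 FPKM in control, 31.9, 30 and 29.4 with ph+E(z), and 8.56, 10.2 and 16.2 with all 3 targets. CG1516 (PCB), pyruvate carboxylase, which supplies oxaloacetate to the citric acid cycle and to glucose synthesis, measured 7.79, 9.35 and 9.0 FPKM with ph+E(z) and 4.83, 4.77 and 4.3 with all 3 targets. Aldh7A1 was the member of these 3 that stepped down at each comparison without overlap. Limma did not call its step with ph+E(z) RNAi (adjusted p = 0.291). The exons of Aldh7A1 overlap those of CG42374 and CG9666. Its q-value in the authors' deposited table for the addition of CtBP RNAi was 0.143.

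Another 3 named members have separate roles. CG9139 (Rabex-5), an exchange factor that activates the early endosome GTPase Rab5, lay at 69.5, 62.2 and 64.3 FPKM in control, 73.3, 74.0 and 71.7 with ph+E(z), and 28.2, 27.2 and 35.0 with all 3 targets. CG4330 (MFS10), a transporter of the major facilitator superfamily, lay at 16.4, 14.6 and 15.6 FPKM in control, 22.9, 38.8 and 40.6 with ph+E(z), and 14.6, 10.2 and 11.2 with all 3 targets. Its level with all 3 targets was close to but below that of the controls. CG32088 (sunn), a gene for sister chromatid cohesion in meiosis of the germline, lay at 20.2, 21.4 and 23.1 FPKM with ph+E(z) and at 9.44, 8.48 and 12.4 with all 3 targets. The summed level of germline markers was 34.9 to 38.9 FPKM in control, 38.9 to 39.7 with ph+E(z) and 34.7 to 38.2 with all 3 targets. Limma called 0 of the 4 tested germline markers in any of the 3 comparisons. Their part in the values of sunn was not tested.

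A further 11 members without a name had folds of 1.81 to 3.79 between the means. CG3902 on 3L, whose exons overlap those of CG11637, measured 79.3, 80.1 and 82.9 FPKM in control and slightly less, 74.8, 79.0 and 78.1, with ph+E(z), and lay at 32.5, 32.8 and 44.3 with all 3 targets. CG5390 on 2L lay at 81.3, 84.9 and 86.8 FPKM with ph+E(z) and at 42.5, 45.3 and 44.2 with all 3 targets. In CG3902 replicate 3 stood above the other libraries with CtBP RNAi, while in CG5390 the 3 lay close together. CG34232 on 2R showed the gap of the library labelled control replicate 1 again, at 7.56 FPKM against 34.6 and 35.0 in the other controls, with 22.5, 31.4 and 36.8 with ph+E(z) and 9.25, 9.79 and 7.9 with all 3 targets. CG33459 on 2R had its highest library in the same control, at 19.6 FPKM against 5.59 and 6.11, with 16.6, 8.27 and 9.05 with ph+E(z) and 2.51, 1.5 and 4.97 with all 3 targets. The remaining CG5697, CG9372, CG1835, CG31637, CG12075, CG14253 and CG31807 had ph+E(z) means between 1.87 and 75.7 FPKM.

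The control libraries show from which level each member fell. The mean with ph+E(z) RNAi was 50.6% to 249% of the control mean, with a median of 116%. The ph+E(z) libraries lay wholly above the controls in 19 members and wholly below in 8, and overlapped them in 24. Over all tested genes the shares were 13.8% above and 12.9% below. The rule chose members whose ph+E(z) libraries were high, and the same libraries are compared with control here. Its exclusion of genes raised at least 1.5 times limits how far they lie above control. This order and the calls that follow are therefore a description, and nothing is read from them. By limma 5 members were called higher and 2 lower with ph+E(z) RNAi, against 2.58% and 1.34% of tested genes. The 5 became 11 without the library labelled control replicate 1, 0 without replicate 2 or 3 of either group, and 3 without any library of the group with all 3 targets. The 2 became 0 when control replicate 2 was left out, or either of ph+E(z) replicates 2 and 3, 1 without ph+E(z)+CtBP replicate 1 or 2, and 4 without its replicate 3. With a fit of only the groups compared these counts were 0 and 1.

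With all 3 targets the mean was 6.84% to 90.6% of the control mean, with a median of 43.1%. It was at or under 25% of control in 12 members, between 25% and 50% in 21, and over 50% in 18. In 41 of 51 members all 3 libraries lay below all 3 controls, where this held for 17.9% of tested genes, and in 49 without the library labelled control replicate 1. By limma 32 members were called lower and 0 higher against control, where 4.15% of tested genes were called lower and 5.58% higher. The same 3 libraries chose the members as low, so nothing is read from these counts. In 0 members did the libraries with all 3 targets lie wholly above the controls, where 18.4% of tested genes did.

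The order of the 3 groups differed between members. The same libraries chose the members, and the exclusion limits how far ph+E(z) lies above control. Shares of these joint orders among all tested genes are not given here. The counts of each order, here and in the next paragraph, are therefore a description, and nothing is read from them. In 20 members control and ph+E(z) libraries overlapped and those with all 3 targets lay below both. In 13 the ph+E(z) libraries were above control and those with all 3 targets below it. In 8 the level was lower at each step. CG5080 on 2L was the clearest of these at 50.7, 46.0 and 40.8 FPKM in control, 25.2, 23.9 and 20.5 with ph+E(z), and 8.24, 9.1 and 12 with all 3 targets. CG7322 on X stepped from 23.1, 19.8 and 16.6 FPKM through 13, 9.71 and 9.88 to 6.25, 6.46 and 6.1. CG7126 on 3R stepped from 6.34, 7.05 and 5.54 through 3.01, 3.97 and 3.44 to 1.62, 1.44 and 1.14. CG18747 on 3R had the same order, from 13, 8.46 and 10.4 FPKM through 5.99, 7.33 and 6.1 to 1.16, 1.46 and 1.79. In each of these 4 genes the mean with all 3 targets was 13.8% to 31.6% of control.

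At the other end were members whose ph+E(z) mean lay furthest above the control mean. In 6 members the ph+E(z) libraries lay above control and those with all 3 targets overlapped it. CG1092 on 3R measured 59.6, 131 and 128 FPKM in control, 194, 253 and 274 with ph+E(z), and 97.5, 95.7 and 95.6 with all 3 targets. Its mean with all 3 targets was 90.6% of control, but the low value of control replicate 1 sets that mean, and the other 2 controls lay above. CG33465 on 2R, within the gene tun, measured 1.3, 1.93 and 2.43 FPKM, then 4.71, 3.53 and 4.32, and then 1.04, 1.11 and 1.36. CG34054 on 2R measured 6.17, 3.78 and 3.5 FPKM, then 14.5, 7.33 and 11.2, and then 3.59, 3.11 and 1.72. CG18765 on 3R had scattered controls at 0.870, 2.17 and 3.66 FPKM. It lay at 3.47, 6.81 and 6.4 with ph+E(z) and at 1.93, 2.27 and 1.36 with all 3 targets. It was not among the 6, but 1 of 4 members whose controls overlapped both other groups. CG4259 on 2L, at 139, 94.7 and 84.5 FPKM in control and 191, 226 and 238 with ph+E(z), went to 68.5, 77.5 and 60, below the controls. CG33465, CG4259, MFS10, Nepl19 and Nepl20 were the 5 members called higher with ph+E(z) RNAi.

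**Figure D2:**
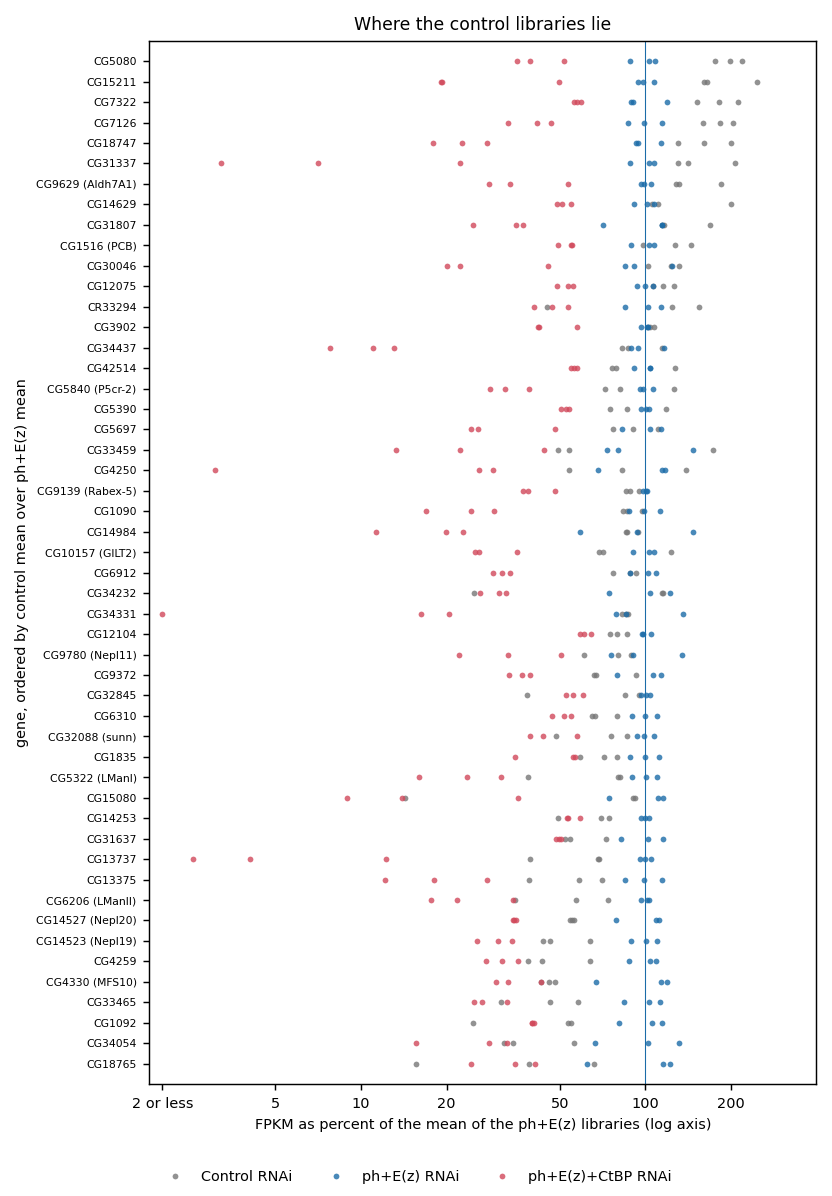
Each row is 1 of 50 of the 51 genes and each point 1 library, as FPKM in percent of the mean of the gene's 3 ph+E(z) libraries on a log axis. Rows run from CG5080, whose ph+E(z) mean was 50.6% of control, at the top to CG18765, at 249% of control, at the bottom. Grey control points move from right to left of the blue ph+E(z) points, while the red points with all 3 targets lie left of the blue in each row, as the rule demands. The CG34331 library listed at 0 is drawn at the left edge.

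The members were spread over the 5 large chromosome arms, with 16 on 3R, 11 on 3L, 9 on 2R, 8 on X and 7 on 2L. The arm 3R held 31.4% of members and 24.7% of the 3817 other CG or CR genes that reached 1 FPKM and were found in dm6. Neighbouring members on an arm lay a median of 1420 kb apart. Within 10 kb of another member lay 4 of 51, or 7.84%, while 2.1% of the 3817 other genes lay within 10 kb of a member. The same 4 were found at 5 and at 20 kb. They form a pair of divergent neighbours each. LManI, FBgn0032253 on the minus strand of 2L at 10452677 to 10457241, starts 416 bases from LManII, FBgn0027611 on the plus strand at 10457658 to 10462472. Nepl19, FBgn0039612 on the minus strand of 3R at 28878024 to 28880122, starts 669 bases from Nepl20, FBgn0039613 on the plus strand at 28880792 to 28882945. Both Nepl genes have a single exon and lie within the gene CG33203. Each pair belongs to 1 gene family, so near-identical stretches could share reads, which was not tested.

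The Nepl pair sits in a run of 5 Nepl genes. Nepl21 follows 747 bases after Nepl20 and was called lower with CtBP RNAi (log2 change -1.91 ± 0.31, limma adjusted p = 0.0139, and 0.00137 to 0.0752 under the alternatives). Leaving out ph+E(z) replicate 2, ph+E(z) replicate 3 or ph+E(z)+CtBP replicate 2 removed the call. It measured 4.5, 2.18 and 1.9 FPKM in control, 8.5, 11.6 and 11.7 with ph+E(z), and 3.2, 1.84 and 2.39 with all 3 targets, and is no member because ph+E(z) RNAi had raised it past the exclusion. Nepl18, 218 bases from Nepl19, lay at 0.682, 0.549 and 0.550 FPKM with ph+E(z) and at 0.0562, 0.0596 and 0.356 with all 3 targets (limma adjusted p = 0.158). Nepl17 at the end of the run did not exceed 0.396 FPKM in any library and was not tested. Levels thus differed widely along the run, with Nepl20 the highest of the 5 in each group.

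**Figure D3:**
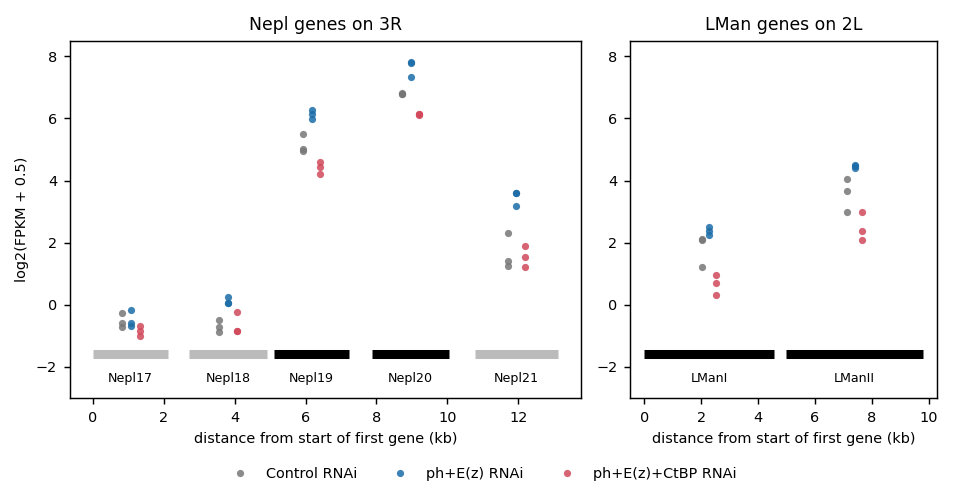
Points give log2(FPKM + 0.5) of each of the 9 libraries for the Nepl run on 3R (left) and the LMan pair on 2L (right), placed by distance from the start of the first gene in kb. Bars mark the gene bodies, black for members and grey for genes that are not. In Nepl19, Nepl20, LManI and LManII the blue ph+E(z) points lie above the grey controls and the red points with all 3 targets below them, and Nepl17 and Nepl18 lie near the floor.

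A looser group of 4 members lay within 180 kb on 3R. CR33294 at 4186963 to 4196210 was followed after 70.6 kb by CG1092 at 4266770 to 4268316, after 24.0 kb by CG9780 (Nepl11) at 4292274 to 4294840, and after 65.0 kb by CG1090 at 4359883 to 4366855. CG1090 measured 3.79, 3.68 and 4.3 FPKM in control, 4.95, 4.37 and 3.87 with ph+E(z), and 0.742, 1.07 and 1.29 with all 3 targets. CR33294, the member annotated as a pseudogene, measured 2.91, 8.04 and 10 FPKM, then 5.47, 6.6 and 7.35, and then 3.45, 3.03 and 2.62. Its libraries with all 3 targets overlapped the controls through the library labelled control replicate 1, and the other controls lay above all 3. Of 26 other tested genes in this span, limma called 1 lower with CtBP RNAi, and their median log2 change was -0.07. That gene was TwdlU, of the Tweedle family of cuticle proteins, named after its values were seen, which lay at 6.21, 10.6 and 11.3 FPKM with ph+E(z) and at 2.94, 3.39 and 2.3 with all 3 targets (limma adjusted p = 0.0145, and 0.00728 to 0.081 under the alternatives). That call was lost when replicate 2 or 3 with ph+E(z), or replicate 1 with all 3 targets, was left out.

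Within 10 kb of a member lay 229 other genes of the file, of which 170 could be tested, 153 apart from a member and 17 overlapping a member's body. When CtBP RNAi was added, limma called 3 of the 153 lower and 0 higher, and 0 of the 17 lower and 1 higher. At an unadjusted p under 0.05, 2 of the 153 were higher and 3 of the 17 lower. Over the 170 the adjusted calls are 1.76% lower and 0.588% higher, against 1.77% and 1.94% of all tested genes. The 170 hold no members by definition, while all tested genes include the 40 members called lower. The sets are unlike, so no share given here for neighbours is read against that of all tested genes. The median log2 change was -0.07 over the 170 and -0.008 over all tested genes, and groups did not overlap in the lower direction in 21.8% of the 170 against 16.0% of all. The 3 lower became 17 without the library labelled control replicate 1, 1 without ph+E(z) replicate 1 or ph+E(z)+CtBP replicate 1 or 2, and 5 without ph+E(z)+CtBP replicate 3, while 0 were left when ph+E(z) replicate 2 or 3 was omitted. The 1 higher became 3 without the library labelled control replicate 1. Leaving out control replicate 3, or any library of the other groups, gave 0. The shares of all tested genes called in these fits are not given here, so the counts have no background to be read against.

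The 3 neighbours called lower were Nepl21, PKD and CG7763. All 3 met the rule's fold, and they are no members because PKD has a name and the other 2 lay above the controls by the excluded fold with ph+E(z) RNAi. PKD encodes protein kinase D and lies 429 bases from the member CG7126 on the same strand of 3R, at 18303279 to 18314407. It measured 17.1, 16.0 and 13.4 FPKM in control, 20.8, 18.6 and 17.4 with ph+E(z), and 3.09, 2.5 and 8.43 with all 3 targets, a log2 change of -2.08 ± 0.36 (limma adjusted p = 0.0185). Unlike CG7126, it was not lower with ph+E(z) RNAi. CG7763, 4071 bases from CG34054 on 2R, measured 2.97, 2.12 and 3.21 FPKM in control, 10.4, 8.36 and 11.4 with ph+E(z) and 3.51, 4.65 and 1.62 with all 3 targets, a change of -1.57 ± 0.32 (limma adjusted p = 0.0357). The neighbour called higher, CG33158, contains the member CG42514 and moved the other way, from 14.1, 13.4 and 12.6 FPKM with ph+E(z) to 20.1, 21.4 and 20.6 (0.61 ± 0.13, limma adjusted p = 0.0374). Under the alternatives the adjusted p was 0.000994 to 0.09 for PKD, 0.0193 to 0.159 for CG7763 and 0.00477 to 0.176 for CG33158. CG42514 lay at 41.2, 47.0 and 47.0 FPKM and then at 25.3, 24.7 and 25.9.

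**Figure D4:**
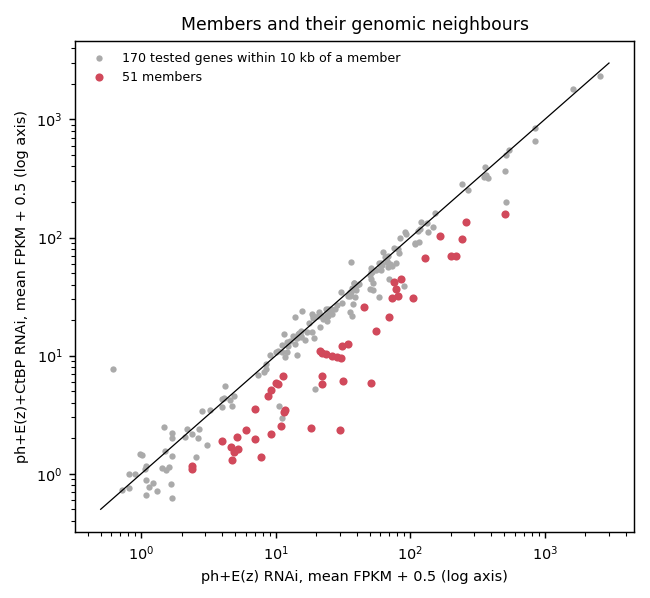
Mean FPKM + 0.5 with all 3 targets against that with ph+E(z) RNAi, on log axes, for the 51 members (red) and the 170 tested genes within 10 kb of one (grey), with the line of equal levels. The members lie below the line because the rule chose them so, while most grey points lie along it, with a median log2 change of -0.07.

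The longest transcript had a median length of 1585 bases and 4 exons, against 1765 bases and 3 exons in the 3817 other CG or CR genes, and ranged from 545 to 5546 bases. The values of 18 members are less certain, since 16 share their deposited locus with other genes and 9 have exons that overlap those of another gene, and the sources used here do not state strand. CG32845 is a case: it lies within the gene miple2, whose exons it overlaps and which encodes a secreted heparin-binding growth factor. It measured 9.18, 9.88 and 9.56 FPKM with ph+E(z) and 5.0, 5.3 and 5.77 with all 3 targets. The far more abundant miple2 lay at 505, 517 and 520 FPKM and then at 156, 203 and 234 (log2 change -1.39 ± 0.34, limma adjusted p = 0.0641, and 0.000885 to 0.234 under the alternatives). With the strand not stated, the assignment of reads within the pair is uncertain, and whether reads were shared was not tested.

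Libraries of a group did not contribute alike. With all 3 targets, replicate 3 was the highest of its group in 29 of 51 members, or 56.9%, against 38.9% of tested genes. Its median level over members was 38.9% of the ph+E(z) mean, against 33.8% and 33.1% in replicates 1 and 2. CtBP itself was highest in that library, at 65.8 FPKM against 49.0 and 41.8, and the part of this in the members' values was not tested. Since the rule compares with the highest library, 103 genes instead of 51 would be members without ph+E(z)+CtBP replicate 3. Replicate 3 also stood apart in CG30046 on 2R, which lay at 26.8, 18.3 and 19.6 FPKM with ph+E(z) and at 4.79, 4.31 and 9.74 with all 3 targets. Among the ph+E(z) libraries, replicate 1 was the lowest in 31 members, or 60.8%, against 41.9% of tested genes.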

How the data were processed

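RNA was measured in 9 libraries of Kc167 cells, 3 per group. The authors deposited FPKM values per gene and library, with group means and the q-values of pairwise comparisons. The tools, per the submitters' processing notes, were TopHat2 2.1.0, Bowtie2 2.2.6, Cufflinks, Cuffdiff and R 3.2.3, and the build dm6. The scaling of FPKM between libraries is not stated. Of 13462 genes matched by FlyBase identifier to the dm6 annotation, 801 had a deposited start within 1 base of it, so positions come from that annotation (Ensembl, BDGP6). RefSeq locus tags matched more genes, 13684 in all, including 1 member, CG9139.

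Differences were fitted on log2(FPKM + 0.5) with limma 3.58.1 (R 4.3.3), using a mean-variance trend, over 8853 genes with at least 0.5 FPKM in at least 3 of 9 libraries. Fold changes on this scale understate those of low genes. One fit held all 3 groups, adjustment (Benjamini-Hochberg) was made per comparison, and 0.05 was the threshold. The fit was tested on simulated data. Values are mean or estimate ± SE where so written. Neighbours are genes whose dm6 bodies lie within 10 kb.

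The members and lists were chosen with earlier results of these data known. By rule, values are given for the 8 members with the largest fall and the 8 most abundant, members near another, the 5 with the lowest adjusted p and the 6 highest and lowest against control, those at the threshold, called neighbours, the CR gene and members with a name. The Nepl, LMan and GILT families were added after their values were seen. Markers were matched by exact spelling. Replicate numbers did not pair the libraries, with correlations of deviations from -0.137 to 0.197. Alternatives covered the rule's thresholds, pseudocount, filter, scaling, trend, groups fitted, a replicate block and leaving out each library. The values of 1 member are not reported here. Promoter motifs and protein comparisons are not analysed here.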

Additional observations from a re-analysis of the deposited data

How the results depend on the processing

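The number of members was 106 when the margin between groups was 25% in place of 50%, and 23 with a fold of 2, and 48 to 103 when 1 library was left out. The 40 members called lower when CtBP RNAi was added ranged from 18 to 51 without 1 library, and the replicate block gave 33. For ph+E(z) against control the 5 higher calls were 3 without a filter, 0 with only the groups compared and 1 with the replicate block, and 0 to 11 without 1 library. The 2 lower calls were 1 without a filter, 1 with only the groups compared and 0 with the replicate block, and 0 to 4 without 1 library. The 32 lower calls of all 3 targets against control stayed within 1.5 times under the alternatives run, at 22 to 41 without 1 library and 27 with the replicate block. The 3 neighbours called lower were 14 with only the groups compared, 5 with quantile normalization and 6 within 20 kb, and 0 to 17 without 1 library. The 1 called higher was 0 with equal library medians, without a filter, with quantile normalization and with the replicate block, 4 within 20 kb, and 0 to 3 without 1 library. The cause was not tested. The share of all tested genes called under each alternative is not given here, so these counts have no background of their own. The replicate numbers share no known source, and the block uses up degrees of freedom. Over the genes compared under each alternative, 1508 values kept their side of the threshold, 295 lost a call, 31 gained one and 0 changed sign. With depth unknown, values near 1 FPKM carry a counting error that cannot be stated.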

Other observations

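In the authors' deposited table, 11 members had a q-value of 0.05 or more for the addition of CtBP RNAi although no library overlapped between the groups. Of these 11, 9 share their deposited locus with other genes, while 7 of the 40 members with a smaller q-value do. By limma 7 of the 11 were called lower. CG15211, with a q-value of 0.604 in the authors' deposited table, and CG31807 within the gene grp, with 0.68, are examples. CG31807 lay at 1.33, 2.14 and 2.14 FPKM with ph+E(z) and at 0.657, 0.697 and 0.463 with all 3 targets.

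The neighbour CG33981 on 2R split its own groups. It lay at 0.0322, 12.5 and 9.09 FPKM with all 3 targets and at 0.00199, 5.51 and 0.792 in control, and did not exceed 0.198 FPKM with ph+E(z) RNAi (limma adjusted p = 0.378 for the addition of CtBP RNAi). It was named after its values were seen.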
